A study of Mus musculus with 8 samples.

Results

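The small integrin-binding ligand N-linked glycoprotein (SIBLING) genes Dmp1, Ibsp, Mepe, Spp1 and Dspp, together with their neighbour Sparcl1, were followed in osteogenic cultures treated with locamidazole (LAMZ). These 6 of the 51822 gene symbols with a value were chosen by symbol and by place in the chromosome 5 cluster, with earlier results of the same libraries known, among them the large LAMZ-to-control differences of Dmp1 and Spp1. Differences between LAMZ and control culture are therefore given for these genes as a description, without a test. For these genes, tests were made only between the days and for the change of the LAMZ difference between the days. Other genes named below were also tested between LAMZ and control culture.

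LAMZ is an aminoindazole derivative. It was present at 1 µM, and control culture received its vehicle, dimethyl sulfoxide. Cells were harvested on day 7 or day 14, which gave the 4 groups day 7 control, day 7 LAMZ, day 14 control and day 14 LAMZ, with 2 RNA sequencing libraries in each. All groups were kept in alpha-MEM with 10% fetal bovine serum, to which β-glycerophosphate (10 mM), dexamethasone (10 nM) and ascorbic acid were added, a medium that drives osteoblast differentiation and mineral deposition. The sample labels name the cells MC3T3-E1, a clonal osteoblastic line from mouse calvaria, whereas the series title and the study's methods speak of calvarial cells, so the sources differ on the kind of cell. The labels do not say that the libraries of a group came from separate cultures, and the p-values below measure only the spread between these libraries.

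SIBLING proteins are secreted, acidic phosphoproteins of bone and tooth matrix that bind calcium and carry the integrin-binding motif Arg-Gly-Asp. Their genes stand in a row on a single chromosome and are thought to descend, with the casein and enamel matrix genes, from a Sparc-like ancestor of which Sparcl1 is the closest living relative in the cluster. In bone they take part in mineral nucleation, in the restraint of crystal growth and in the attachment of cells to matrix, and their transcripts mark successive stages from the maturing osteoblast to the osteocyte.

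Levels are given in RPKM, the reads per kilobase of exon, scaled to the mapped reads of the library, which can be compared between genes. Mapped reads per library ranged from 3463539 to 5832097. Osteoblast markers were present in every library: all 7 listed (Runx2, Sp7, Alpl, Col1a1, Col1a2, Bglap and Sparc) were above 0, and Col1a1, the type I collagen chain of bone, was the most abundant, at 4354 to 9964 RPKM. Their summed level was 9484 and 10757 RPKM in day 7 control, 12026 and 11813 in day 7 LAMZ, 13188 and 12767 in day 14 control, and 17174 and 18802 in day 14 LAMZ. Col1a1, Col1a2 and Sparc made up nearly all of it, at 4354, 2596 and 2449 RPKM in day 7 control replicate 1. The sum therefore says little about Runx2, Sp7, Alpl and Bglap.

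The 6 genes lay within 362 kb of chromosome 5 of the mouse build GRCm38. From the low to the high end the order was Sparcl1 (chr5:104079111-104113733), Dspp (chr5:104170712-104180127), Dmp1 (chr5:104202613-104214102), Ibsp (chr5:104299171-104311469), Mepe (chr5:104325329-104338611) and Spp1 (chr5:104435118-104441050). Sparcl1 was annotated on the minus strand and the 5 SIBLING genes on the plus strand. Exon lengths ran from 1648 bases for Spp1 to 4431 bases for Dspp. The antisense gene Gm26703 overlapped Sparcl1 and was listed at 0 to 0.102 RPKM, and the gene model Gm42793 overlapped Spp1 and was listed at 0 in all 8 libraries. The strand used in counting is not given in the sources used here, so reads of overlapping genes cannot be told apart.

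Because Dmp1, Ibsp, Mepe and Spp1 were all higher in LAMZ culture, their promoter sequences are shown, as RefSeq gives them for GRCm38.p6, all on the plus strand. The table held windows for 4 of the 6 genes; Dspp and Sparcl1 had no entry. The Dmp1 run (chr5:104202367-104202612), the Spp1 run (chr5:104434861-104435110) and the Mepe run (chr5:104325079-104325328) lie before the first annotated exon. The Ibsp run (chr5:104299233-104299262) does not: it lies before the RefSeq start but inside the first exon that GENCODE gives, which covers the last 116 bases of the window, and for that reason it was kept to 30 bases. Capitals mark the inverted CCAAT box, which reads ATTGG on this strand, and the run TTTAAA, which resembles a TATA box; both choices were made after the windows had been read.
Dmp1: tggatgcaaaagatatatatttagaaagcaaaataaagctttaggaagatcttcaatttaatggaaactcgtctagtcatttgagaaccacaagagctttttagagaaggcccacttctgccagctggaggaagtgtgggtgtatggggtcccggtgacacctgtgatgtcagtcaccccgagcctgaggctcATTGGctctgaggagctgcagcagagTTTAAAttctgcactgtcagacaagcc
Spp1: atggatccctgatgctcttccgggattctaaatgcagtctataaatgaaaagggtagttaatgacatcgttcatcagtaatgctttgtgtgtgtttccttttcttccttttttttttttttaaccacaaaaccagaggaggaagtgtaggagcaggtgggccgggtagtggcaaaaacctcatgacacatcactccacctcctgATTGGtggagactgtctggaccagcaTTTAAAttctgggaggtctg
Ibsp: ATTGGctgttgagaggcggagaagggttta
Mepe: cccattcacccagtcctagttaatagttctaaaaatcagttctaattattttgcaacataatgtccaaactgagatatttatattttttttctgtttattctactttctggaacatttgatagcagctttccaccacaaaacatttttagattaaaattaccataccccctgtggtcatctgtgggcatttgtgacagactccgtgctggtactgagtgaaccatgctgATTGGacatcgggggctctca

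The 250 bases before the RefSeq start were searched on both strands. ATTGG was found in 4 of 4 members' windows, beginning 57 bases before the start in Dmp1, 46 in Spp1, 54 in Ibsp and 21 in Mepe, and in 33.8% of the 32851 windows in the table. TTTAAA began 31 bases before the start in Dmp1 and 20 in Spp1, and was held by 12.1% of all windows. Ibsp held TTTATA, beginning 28 bases before the start and ending beyond the printed run. TTTATA, too, was chosen after the windows had been read, so the shares of all windows are no test of a pattern in these genes. A further window that the table gives for Dmp1 and a further one for Spp1 held neither ATTGG nor such a run in the last 80 bases. TGTGGT, the core bound by RUNX factors, was found in Dmp1, Spp1 and Mepe and in 14.0% of all windows. The E-box CANNTG was in 4 of 4 members' windows and 66.2% of all, TGACGT in Ibsp and 6.47% of all, TAATTA in Mepe and 4.84% of all, and the AP-1 motif TGANTCA in 0 of 4 and 6.75% of all. A match is a description of the letters and not of factor binding.

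Dmp1 encodes dentin matrix protein 1, a nucleator of mineral and a regulator of phosphate balance that is best known from osteocytes. Its level was 5.57 and 8.25 RPKM in the day 7 control libraries, 85.5 and 86.2 in day 7 LAMZ, 19.9 and 19.0 in day 14 control, and 139 and 170 in day 14 LAMZ. LAMZ libraries were far above control libraries on both days, and the 4 groups followed each other without overlap in the order day 7 control, day 14 control, day 7 LAMZ and day 14 LAMZ. The group means were 6.91 ± 1.90, 19.5 ± 0.690, 85.8 ± 0.476 and 155 ± 21.9 RPKM in that order (SD, n = 2). The day 7 mean with LAMZ was 12.4 times that of control and 4.41 times that of control at day 14, and the ratio at day 14 was 7.95. In terms of rank among all genes Dmp1 stood at 4508 in day 7 control and at 220 in day 14 LAMZ.

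Between the days Dmp1 rose in both kinds of culture. In control culture the difference was 1.39 ± 0.18 on the log2(RPKM + 1) scale (SE; limma adjusted p = 0.0088), or 2.82 times by the means, and both day 14 libraries exceeded both day 7 libraries. In LAMZ culture the rise was 0.83 ± 0.18 (limma adjusted p = 0.0188), or 1.80 times, again without overlap. The change of the LAMZ difference between the days was −0.56 ± 0.25 and did not pass the test (limma adjusted p = 0.316). The rise in control culture was no longer called without day 14 control replicate 1 (0.073), without day 14 control replicate 2 (0.0513) or when the control groups were fitted alone (0.118), over a range of adjusted p from 0.00191 to 0.118 in 19 alternatives. The rise in LAMZ culture was lost without day 7 LAMZ replicate 1 (0.0975), day 7 LAMZ replicate 2 (0.105) or day 14 LAMZ replicate 2 (0.128), and without a filter on low values (0.0551), over a range from 0.0073 to 0.128.

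Ibsp encodes bone sialoprotein, a nucleator of hydroxyapatite made by osteoblasts at the onset of mineralization. Its level was 52.3 and 66.7 RPKM in day 7 control, 167 and 166 in day 7 LAMZ, 66.2 and 63.4 in day 14 control, and 393 and 373 in day 14 LAMZ. The control libraries of the days overlapped, and the LAMZ libraries lay above them, with day 14 above day 7. The means were 59.5 ± 10.2 in day 7 control, 64.8 ± 1.95 in day 14 control, 166 ± 0.809 in day 7 LAMZ and 383 ± 14.2 RPKM in day 14 LAMZ (SD, n = 2). LAMZ culture held 2.80 times the control mean at day 7 and 5.91 times at day 14.

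In control culture Ibsp differed between the days by 0.13 ± 0.14 (log2, SE; 95% confidence interval −0.18 to 0.44; limma adjusted p = 0.633). In LAMZ culture it rose by 1.20 ± 0.14 (limma adjusted p = 0.00186), or 2.30 times by the means, and this call was kept in 19 of 19 alternatives. The change of the LAMZ difference was 1.07 ± 0.19 and did not reach the threshold (limma adjusted p = 0.0589), so a larger LAMZ difference at day 14 was not shown by that test. It passed with a pseudocount of 5 (0.0492), with a filter at 5 RPKM (0.0383) and, in an alternative added after seeing the data, among genes with at least 1 kb of exon (0.0222), in a range from 0.0222 to 0.207 over 19 alternatives.

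Spp1 encodes osteopontin, an inhibitor of crystal growth and an attachment protein for cells that carry αv integrins or CD44. It is made by osteoblasts, and also by macrophages and osteoclasts. Its level was 84.0 and 204 RPKM in day 7 control, 1380.0 and 1114 in day 7 LAMZ, 266 and 361 in day 14 control, and 2476 and 2472 in day 14 LAMZ. It was the most abundant of the 6 genes in all 8 libraries, and its groups stood in the same order as those of Dmp1, without overlap. The means were 144 ± 84.7, 313 ± 66.7, 1247 ± 188 and 2474 ± 2.69 RPKM in that order (SD, n = 2), and the rank among all genes went from 220 in day 7 control to 9 in day 14 LAMZ. The LAMZ mean was 8.67 times the control mean at day 7 and 7.89 times at day 14, and LAMZ at day 7 was 3.98 times control at day 14.

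The day 7 control libraries of Spp1 differed more than 2-fold, and its tests rested on them. The difference between the days was 1.24 ± 0.36 in control culture (log2, SE; limma adjusted p = 0.0962; 2.18 times by the means) and 1.00 ± 0.36 in LAMZ culture (limma adjusted p = 0.105; 1.98 times), neither of which passed, although the day 14 libraries exceeded the day 7 libraries in both. The control difference passed without day 7 control replicate 2 (1.87, adjusted p = 0.0136), after rescaling to a common sum (0.0499) and among genes of at least 1 kb of exon (0.0452), in a range from 0.0136 to 0.295; without day 7 control replicate 1 it was 0.60. The LAMZ difference passed without day 7 control replicate 1 (0.0133) or replicate 2 (0.0136) and with the LAMZ groups alone (0.0351), in a range from 0.0133 to 0.339. The change of the LAMZ difference was −0.24 ± 0.51 (limma adjusted p = 0.857), with a 95% confidence interval from −1.43 to 0.94.

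Mepe encodes matrix extracellular phosphoglycoprotein, an osteocyte product whose acidic ASARM peptide inhibits mineralization. Its level was low: 0 and 0.172 RPKM in day 7 control, 1.12 and 0.685 in day 7 LAMZ, 0.443 and 0.526 in day 14 control, and 4.79 and 9.13 in day 14 LAMZ. These values stood for 0, 1, 8, 6, 4, 4, 47 and 75 reads in the same order of libraries. The order of the groups was that of Dmp1 and Spp1 and the groups did not overlap, but the lower groups rested on a few reads. The ratio of LAMZ to control reads per mapped read was 10.7 at day 7, from 14 and 1 reads, and 14.1 at day 14, from 122 and 8 reads. For the single read at day 7 the 95% counting interval of the ratio is 1.63 to 452, which covers counting error only, leaves out the spread between libraries and is no test. By the means, the day 14 ratio was 14.4.

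Mepe rose between the days in LAMZ culture by 2.02 ± 0.28 (log2, SE; limma adjusted p = 0.00392), or 7.74 times by the means, and was called in 18 of 18 alternatives. In control culture the difference was 0.46 ± 0.28 (limma adjusted p = 0.381), and the change of the LAMZ difference was 1.57 ± 0.39 (limma adjusted p = 0.119). The log2(RPKM + 1) scale understates the change of so low a gene: with a pseudocount of 0.1 the day difference in LAMZ culture was 2.78 and with a pseudocount of 5 it was 1.00. Mepe reached the filter of 1 RPKM in 2 libraries through both day 14 LAMZ libraries, the high group of this test, and day 7 LAMZ replicate 1; with no filter the adjusted p was 0.0187.

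Dspp encodes dentin sialophosphoprotein, the main noncollagenous protein of dentin, which odontoblasts make in large amounts and bone cells hardly at all. It was listed at 0 in 6 of 8 libraries, at 0.0420 RPKM in day 14 control replicate 1 and at 0.0462 RPKM in day 14 LAMZ replicate 2, which was 1 read each. The level that 3 reads would give, taken as the limit of detection, was 0.116 to 0.195 RPKM across the libraries. Dspp was not tested, and no difference between groups was detectable at this depth.

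Sparcl1 encodes hevin, a secreted glycoprotein of the SPARC family that is best known from blood vessels and brain. Its level was 3.07 and 1.87 RPKM in day 7 control, 0.718 and 0.719 in day 7 LAMZ, 2.85 and 2.71 in day 14 control, and 0.934 and 1.05 in day 14 LAMZ. It was the only member that was lower in LAMZ culture, in 2 of 2 libraries on both days. The means in day 7 LAMZ (0.719 ± 0.000286) and day 14 LAMZ (0.990 ± 0.0792) stood below those in day 7 control (2.47 ± 0.850) and day 14 control (2.78, SD 0.10; n = 2), and the control groups overlapped. The near-equal day 7 LAMZ values came from 9 and 11 reads. Control libraries held 3.44 times the LAMZ mean at day 7 and 2.81 times at day 14. The ratio of LAMZ to control reads per mapped read was 0.288 at day 7, from 20 and 53 reads, and 0.353 at day 14, from 31 and 81 reads.

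Sparcl1 did not pass a test between the days. Its difference was 0.15 ± 0.19 in control culture (limma adjusted p = 0.712) and 0.21 ± 0.19 in LAMZ culture (limma adjusted p = 0.487), and the LAMZ difference changed between the days by 0.06 with an interval from −0.56 to 0.69 (limma adjusted p = 0.934). It reached the filter in 5 libraries, of which 4 were control libraries. In bulk libraries such as these, fewer cells of a type and less RNA per cell cannot be told apart, which holds for Sparcl1 and for each level given here.

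**Figure D1:**
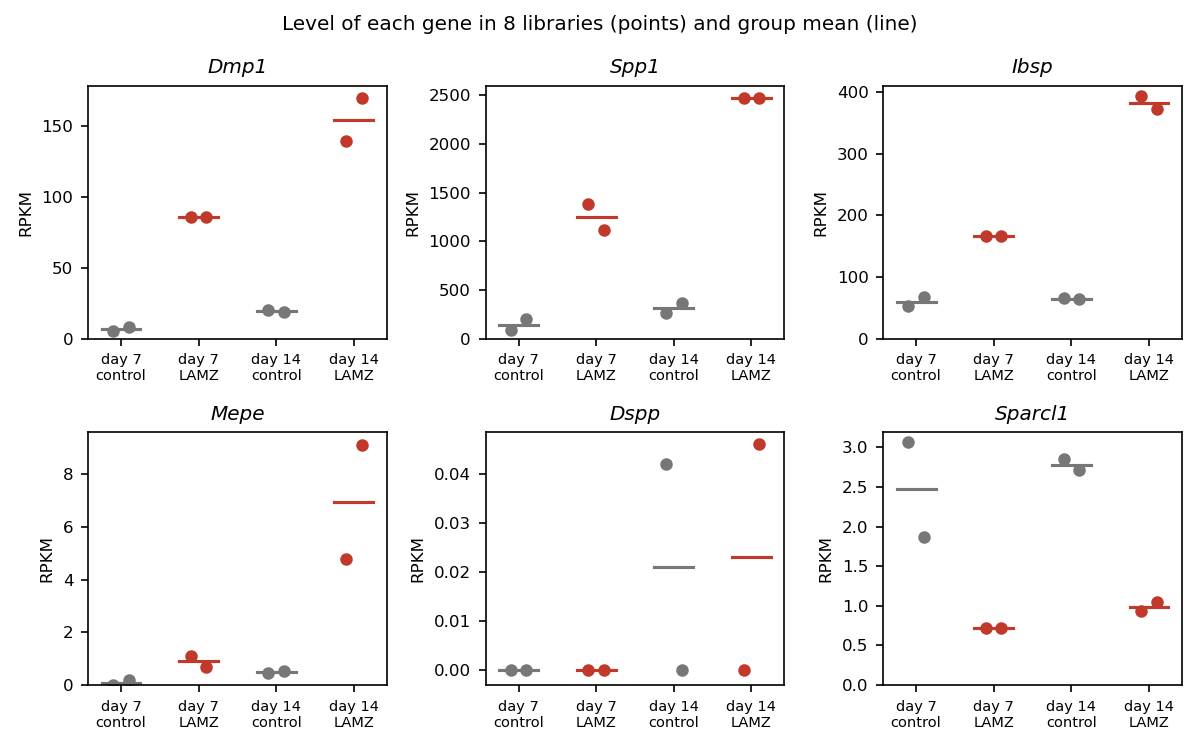
RPKM of Dmp1, Spp1, Ibsp, Mepe, Dspp and Sparcl1 (vertical axes, each from 0 and with its own range) in the 4 groups of 2 libraries. Points are libraries and lines are group means; in red, the LAMZ libraries lie above the grey control libraries of the same day for Dmp1, Spp1, Ibsp and Mepe and below them for Sparcl1, while Dspp is 0 in 6 of 8 libraries.

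On both days, 4 of the 6 genes had LAMZ libraries that all exceeded the control libraries, beside 9.52% of the 12514 genes that passed the filter on low values, and 1 of 6 had LAMZ libraries that were all lower, beside 23.7%. The same counts held on each day alone, where the shares of all tested genes were 20.4% higher and 35.9% lower at day 7, and 20.1% higher and 44.2% lower at day 14. Across all tested genes the limma fit called 12.8% at day 7 (4.35% higher and 8.49% lower with LAMZ) and 23% at day 14 (6.96% higher and 16% lower). Since the genes were chosen with this contrast known, nothing is read from these counts. These called shares of all tested genes are also the background for each count of genes called with LAMZ in the gene lists below, where they are not repeated for every list. On the log2(RPKM + 1) scale the LAMZ difference at day 7 and day 14 was 3.48 and 2.92 for Dmp1 (SE 0.18), 3.23 and 2.99 for Spp1 (SE 0.36), 1.48 and 2.54 for Ibsp (SE 0.14), 0.80 and 2.37 for Mepe (SE 0.28) and −0.99 and −0.93 for Sparcl1 (SE 0.19).

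Between the days the limma fit called 1 of the 6 genes in control culture, Dmp1, beside 4.86% of all tested genes (2.46% higher and 2.4% lower at day 14). In LAMZ culture it called Dmp1, Ibsp and Mepe, or 3 of the 6, all higher at day 14, beside 14.4% of all tested genes (5.1% higher and 9.26% lower). Mepe would not have been tested without the day 14 LAMZ libraries, the high group of this comparison, so nothing is read from this count against that share. The change of the LAMZ difference was called in 0 of 6, beside 0.623% of all tested genes (0.312% higher and 0.312% lower), and 2 of the 6, Ibsp and Mepe, had an unadjusted limma p under 0.05, as had 2061 of the 12514 tested genes. With 2 libraries a group, an exact 2-sided permutation test of a gene on its own cannot give a p under 0.333, so none was run.

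**Figure D2:**
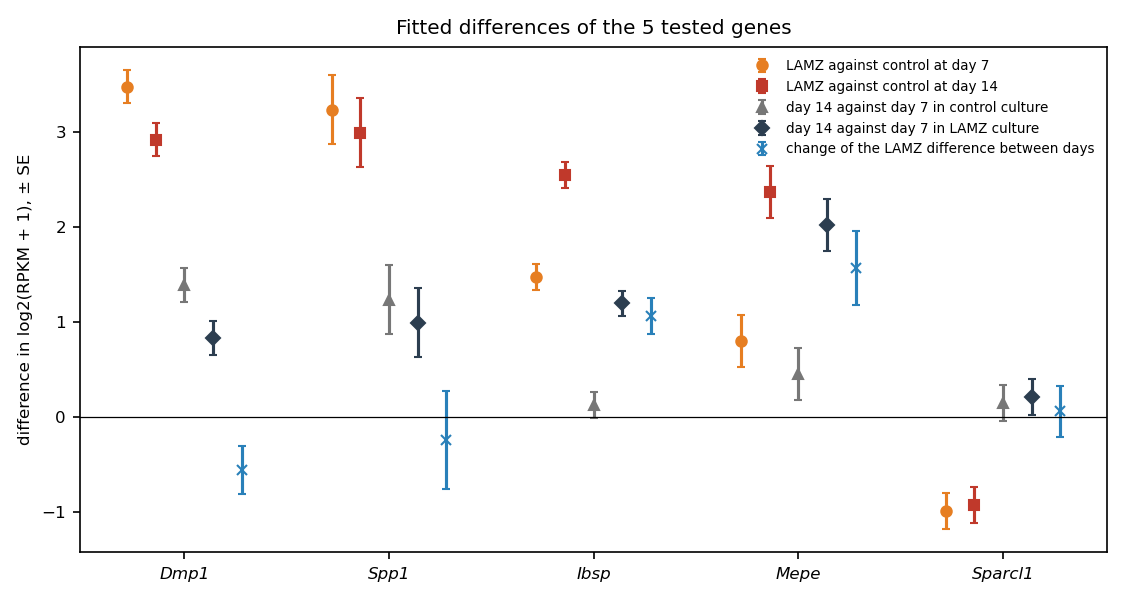
Fitted difference in log2(RPKM + 1) with its standard error (vertical axis) for the 5 tested genes. LAMZ against control is shown at day 7 (orange) and day 14 (red), day 14 against day 7 in control (grey) and LAMZ culture (dark blue), and the change of the LAMZ difference (light blue), which is 1.07 for Ibsp and −0.56 for Dmp1.

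Ratios between members within a library do not depend on the scaling of libraries. The ratio of Ibsp to Dmp1 was 9.40 and 8.09 in day 7 control, 1.95 and 1.92 in day 7 LAMZ, 3.32 and 3.34 in day 14 control, and 2.82 and 2.19 in day 14 LAMZ. Day 7 control thus held far more Ibsp per Dmp1 than the other groups. The ratio of Spp1 to Dmp1 was 15.1, 24.7, 16.1, 12.9, 13.4, 19.0, 17.8 and 14.5 in the same order of libraries, and the groups overlapped. The starts of Spp1 and Dmp1 lie 233 kb from each other. No shift in their proportion was seen, but it was not tested, and the spread of the day 7 control pair would hide a sizeable shift. The ratio of Spp1 to Ibsp was lowest in day 7 control, at 1.61 and 3.05, and highest in day 7 LAMZ, at 8.26 and 6.72, with 4.02 and 5.69 in day 14 control and 6.30 and 6.63 in day 14 LAMZ.

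The summed level of the 6 genes was 145 and 281 RPKM in day 7 control, 1634 and 1368 in day 7 LAMZ, 356 and 446 in day 14 control, and 3014 and 3026 in day 14 LAMZ. Spp1 made up 57.9% and 72.6% of this sum in the day 7 control libraries and 74.9% to 84.4% in the 6 others. Any statement on the sum is therefore mainly one on Spp1.

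**Figure D3:**
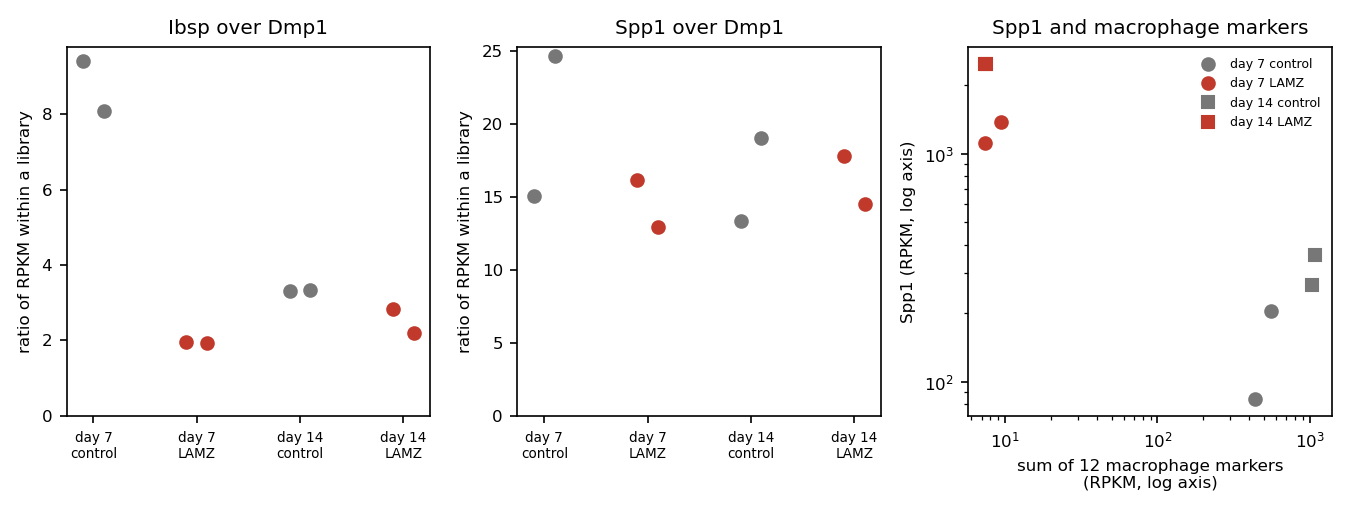
Ratio of Ibsp to Dmp1 and of Spp1 to Dmp1 within each library by group (left and middle, RPKM over RPKM, from 0), and Spp1 against the summed RPKM of 12 macrophage markers (right, both axes logarithmic), with circles for day 7, squares for day 14, grey for control and red for LAMZ. Ibsp to Dmp1 is 8.09 and 9.40 in day 7 control and at most 3.34 elsewhere, and the 4 LAMZ libraries combine the highest Spp1 with the lowest marker sums.

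Spp1 is also a product of macrophages, so the macrophage markers are given beside it. Their sum over 12 genes was 433 and 552 RPKM in day 7 control, 9.43 and 7.43 in day 7 LAMZ, 1032 and 1089 in day 14 control, and 7.36 and 7.52 in day 14 LAMZ. Lyz2, which encodes lysozyme, was the most abundant in each library, and C1qa, C1qb, C1qc and Fcgr1 were at 0 in all 4 LAMZ libraries. Thus Spp1 was 1114 RPKM or more in the libraries where the marker sum was 7.36 to 9.43 RPKM, and 84.0 to 361 RPKM where that sum was 433 to 1089 RPKM. The markers were called lower in 9 of 12 at day 7 and 11 of 12 at day 14. All but Lyz2 passed the filter only with the control libraries, where they were high, so nothing is read from these counts. Their median log2 difference is not used either, since it was set by the pseudocount. What share of Spp1 in control culture came from macrophages was not tested.

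Osteoclasts make Spp1 as well. Of their 6 markers, Ctsk, which encodes cathepsin K, was the most abundant, at 85.0 to 119 RPKM, and it made up nearly all of the marker sum of 88.3 to 123 RPKM over the 8 libraries. Oscar, Dcstamp, Ocstamp and Calcr, markers of osteoclast formation and function, were at 0 to 0.287 RPKM. The part of osteoclasts in the Spp1 level was not tested. Limma called 0 of the 2 tested markers on either day, also at an unadjusted p under 0.05: Ctsk and Acp5, the gene of tartrate-resistant acid phosphatase (2.94 to 6.01 RPKM). Osteocyte markers stand beside Dmp1 and Mepe, which that cell makes. Their sum, of which Pdpn (podoplanin) made up the largest share, was 87.9 and 66.6 RPKM in day 7 control, 50.0 and 50.5 in day 7 LAMZ, 68.8 and 75.6 in day 14 control, and 56.4 and 61.7 in day 14 LAMZ. At day 7 and at day 14, 1 of 3 tested osteocyte markers was higher with LAMZ (Phex) and 1 lower (Pdpn), and the day 7 calls of both held in 6 of 20 alternatives. Sost, the gene of sclerostin, was at 2.51 to 17.7 RPKM and rose in LAMZ culture between the days by 1.91 ± 0.34 (limma adjusted p = 0.0106; lost without day 7 LAMZ replicate 2, 0.0861, or day 14 LAMZ replicate 2, 0.0794) with both day 14 libraries above both day 7 libraries, while Fgf23 was at 0 in 6 of 8 libraries. For Sparcl1, which vessels express, the sum of 5 endothelial markers was 2.82 and 1.52 RPKM in day 7 control, 0.854 and 0.800 in day 7 LAMZ, 2.73 and 2.61 in day 14 control, and 0.753 and 0.767 in day 14 LAMZ, and the part of such cells in the Sparcl1 level was not tested. Tek, an angiopoietin receptor, was the only endothelial marker to pass the filter. It did so only through the control libraries, where it was high, so nothing is read from its calls. With no filter the median of the 5 markers was 0.02 at day 7 and −0.06 at day 14, and the lower sum lay in Tek at day 7 and in Tek and Cdh5, the gene of VE-cadherin, at day 14. Cdh5 was at 0.886 and 1.05 RPKM in day 14 control and 0.326 and 0.244 in day 14 LAMZ, and was named after its values were seen. Tek was lower with LAMZ by 1.14 at day 7 and 0.91 at day 14, and its LAMZ libraries were all below the control libraries of the same day. Its day 7 call was lost without day 7 control replicate 1, day 7 LAMZ replicate 1 or replicate 2, and its day 14 call without any 1 library of that day. Of 3 tested pericyte markers, the potassium channel gene Kcnj8 was not called on either day, Cspg4, a proteoglycan gene, was higher with LAMZ on both days (1.33 and 1.77) and the growth factor receptor gene Pdgfrb lower (−0.68 and −0.74), its day 7 call being lost without day 7 LAMZ replicate 1 (0.0718) or replicate 2 (0.0513).

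Spp1 and Ibsp are also made by hypertrophic chondrocytes. Of 8 chondrocyte markers 5 were higher and 0 lower with LAMZ at day 7, and 6 were higher and 1 lower at day 14 (median 1.37 and 1.25). The called shares of all tested genes were 4.35% higher and 8.49% lower at day 7, and 6.96% and 16% at day 14. Matn3, counted as higher on both days, was at 1.54 to 2.99 RPKM in LAMZ and 0 to 0.309 in control libraries. It passed the filter only through the LAMZ libraries, where it was high, so nothing is read from its calls. Acan was higher by 3.01 and 2.83, and the cartilage collagen gene Col9a1 by 2.16 and 1.86, in 20 of 20 alternatives each. Acan stood near Dmp1 and Spp1 in pattern over the same libraries, so its LAMZ difference is no result separate from that nearness. Col2a1, the main collagen gene of cartilage, was higher by 1.05 and 1.61, its day 7 call being lost without day 7 LAMZ replicate 1 (0.0689) or replicate 2 (0.0757). Comp, a cartilage matrix gene, differed by −0.04 at day 7 without a call and was higher by 1.25 at day 14. Col10a1, the marker of hypertrophic chondrocytes in the list, was not called on either day (−0.45 and 0.77; 0.375 to 4.32 RPKM). Sox9, the regulator of chondrocyte fate, was the lower gene at day 14 (−0.66, limma adjusted p = 0.0225, lower in 2 of 2 libraries), a call lost without any library of that day (0.0541 to 0.125). Both were chosen after their values were seen. Of the 7 osteoblast markers 3 were higher and 0 lower on each day (median 0.66 and 0.39); after rescaling to a common sum the medians were 0.36 and 0.02, with 2 higher at day 14. The part of chondrocyte-like cells in the member levels was not tested.

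Within 500 kb of the cluster 29 further genes had a value, of which 12 were at 0 in all libraries and 8 were tested. Limma called 0 of 8 higher with LAMZ on either day, also at an unadjusted p under 0.05. Of all tested genes 4.35% were called higher at day 7 and 6.96% at day 14, so nothing is read from a count over 8 genes. The log2 differences of these 8 ran from −0.72 to 0.21 at day 7 and from −0.86 to 0.24 at day 14. Hsd17b11, a steroid dehydrogenase gene at the Sparcl1 end, was lower on both days (−0.72 and −0.86), as Sparcl1 was. Aff1, a transcription elongation gene, was called lower at day 7 (−0.40) and not at day 14 (−0.30, limma adjusted p = 0.083), and its LAMZ difference did not change between the days by the test (0.10, limma adjusted p = 0.789). The Aff1 call was kept in 4 of 20 alternatives, with adjusted p up to 0.222 without day 7 LAMZ replicate 1, and the day 7 call of Hsd17b11 was lost without day 7 LAMZ replicate 1 (0.0626) or replicate 2 (0.0518). Pkd2, a cation channel gene next to Spp1, rose between the days in LAMZ culture by 0.53, a call lost without any library of the LAMZ groups (0.0517 to 0.183).

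**Figure D4:**
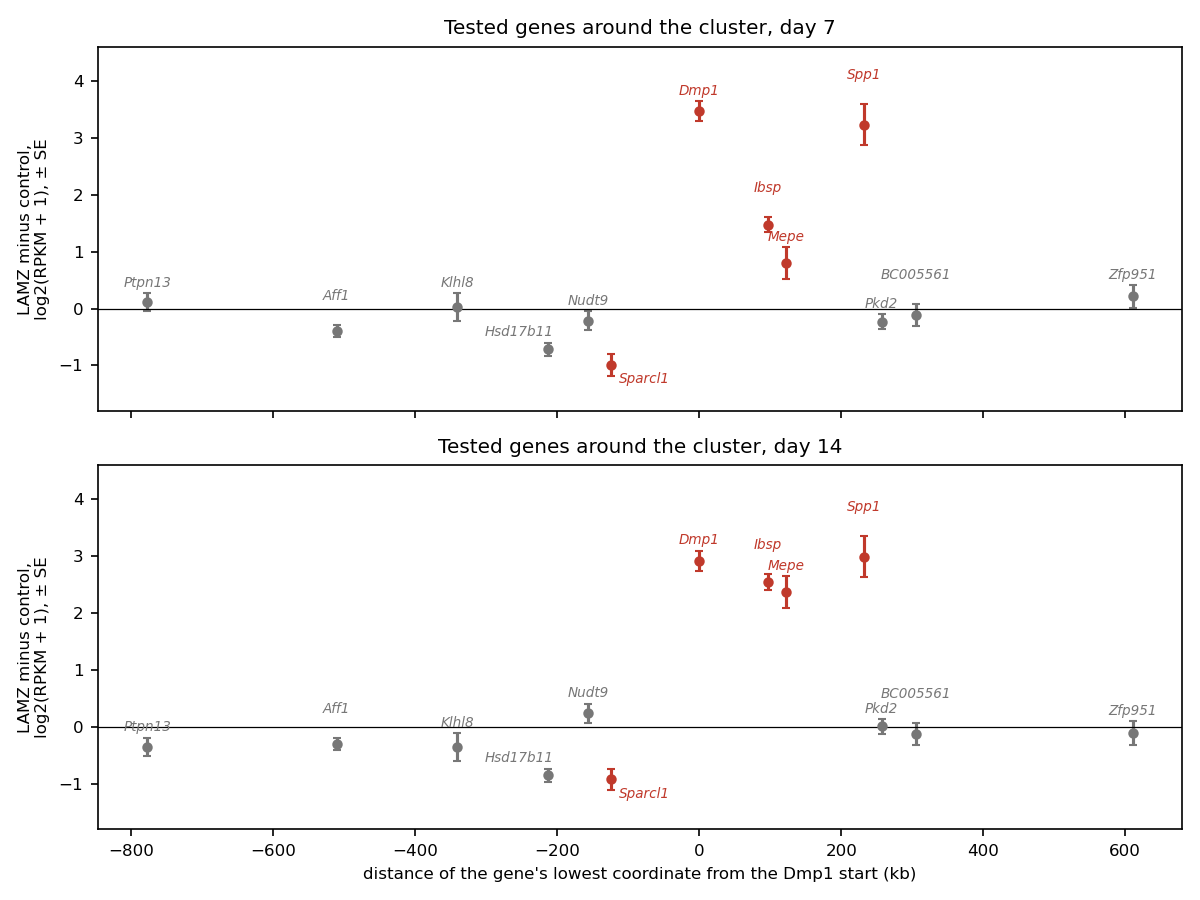
LAMZ minus control in log2(RPKM + 1) with its standard error (vertical axis) at day 7 (top) and day 14 (bottom) for tested genes within 500 kb of the cluster, against the distance of each gene's lowest coordinate from the start of Dmp1 in kb. The 6 genes that were followed, apart from the untested Dspp, are in red and 8 neighbours in grey; the neighbours lie between −0.86 and 0.24, and Dmp1, Ibsp, Mepe and Spp1 above them.

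The genes whose pattern was most like each member were taken by the root mean square distance over the 8 libraries, in log2(RPKM + 1) after each gene's own mean had been subtracted. For Dmp1 the nearest was Spp1, at 0.270, and for Spp1 it was Dmp1, so that these members were closer to each other than to any other tested gene. Susd5 (a sushi domain protein), Acan (aggrecan, the large cartilage proteoglycan) and Alpl (tissue-nonspecific alkaline phosphatase) followed for both, at 0.483, 0.536 and 0.630 from Dmp1; then came the cartilage matrix gene Matn1 for Dmp1 and the citrate transporter gene Slc13a5 for Spp1. Nearest to Ibsp were Aif1l (an actin-binding protein), at 0.125, the serine protease gene Prss50, Alpl, the smooth muscle myosin gene Myh11 and the prostaglandin synthase gene Ptgs2. Mepe had Tmie (a protein of inner ear hair cells) as its nearest, at 0.313, then Slpi (a protease inhibitor), Prmt8 (an arginine methyltransferase), Asns (asparagine synthetase) and Prss50. Nearest to Sparcl1 was the endothelial gene Tek, at 0.0759, then the endosomal sorting gene Mvb12b, the peptidase gene Naalad2, the torsin gene Tor4a and the protocadherin gene Pcdh9. With a pseudocount of 0.1, 3 of the 5 genes were again among the nearest for Dmp1, 2 for Spp1, 3 for Ibsp, 1 for Mepe and 2 for Sparcl1, and Tek was not among those of Sparcl1.

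Genes known to act on or with SIBLING proteins were taken from 5 lists with 53 symbols for 52 genes, of which 50 were tested. Ankh is the newer symbol of Ank, under which that gene had its value, and Itga4 and Fgf23 did not pass the filter. With LAMZ, 14 were higher and 4 lower at day 7, where 4.35% of all tested genes were called higher and 8.49% lower. At day 14, 15 were higher and 12 lower, where the shares of all tested genes were 6.96% and 16%. The median log2 difference of these genes was 0.08 at day 7 and 0.19 at day 14, where the medians of all tested genes were −0.08 and −0.15. The count of higher genes at day 7 was 9 without day 7 LAMZ replicate 1 and 9 without replicate 2, and the count at day 14 was 8 without day 14 LAMZ replicate 2. After rescaling to a common sum the medians of these genes were −0.18 and −0.16, so the sign of the list as a whole turned with the scaling. Between the days 4 rose in control culture, beside 2.46% of all tested genes. In LAMZ culture 12 rose and 8 fell, beside 5.1% and 9.26% of all tested genes. Bglap3 (0.146 to 0.879 RPKM at day 7 and 1.70 to 3.12 at day 14) and Enpp1 passed the filter only through day 14 libraries, where they were high. Nothing is therefore read from these counts between the days.

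Integrins bind the Arg-Gly-Asp motif of Spp1, Ibsp and Dmp1. Of 8 tested integrin and CD44 genes, 2 were higher and 0 lower at day 7, and 1 was higher and 1 lower at day 14 (median 0.07 and −0.00). At day 14 the counts were 1 higher and 4 lower after rescaling to a common sum (median −0.35) and 3 higher and 1 lower after median centring. Itgb3, the β3 chain of the osteopontin and bone sialoprotein receptor, was higher by 0.87 and 1.06 in 20 of 20 alternatives, and its level was 7.44 to 7.55 RPKM in day 7 control and 14.4 to 14.6 in day 7 LAMZ. Itgav, the αv chain of the same receptor, was chosen after its values were seen: it went the other way, with −0.20 at day 7 without a call and −0.80 at day 14 (limma adjusted p = 0.00305, lower in 2 of 2 libraries and called in 20 of 20 alternatives), where the mean was 17.2 RPKM in control and 9.40 in LAMZ culture. Itga8 was higher at day 7 by 0.92, a call lost without day 7 LAMZ replicate 2 (0.051). The most abundant receptor chains, Itgb1, Itgb5 and Itga5, were not called on either day.

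The list for the kinase and proteases that modify SIBLING proteins held 13 genes, of which 3 encode neither: Fam20a, a pseudokinase that activates Fam20c, Pcolce, an enhancer of procollagen cleavage, and Thbs1, the matrix glycoprotein thrombospondin 1. Of the 13, 2 were higher and 2 lower at day 7, and 4 were higher and 5 lower at day 14 (median −0.23 and −0.20). After rescaling to a common sum 0 were higher and 7 lower at day 7, and 3 were higher and 8 lower at day 14 (median −0.52 and −0.56). Mmp3, one of the 5 lower at day 14, was at 1.24 and 3.19 RPKM in day 14 control and at most 0.476 elsewhere. It passed the filter only through day 14 control, the high group of that comparison, so nothing is read from its call. Tll1, a tolloid-like protease of the family that cleaves Dmp1 and Dspp, was lower by 1.64 and 1.84, and Ctsb (cathepsin B) by 1.00 and 1.84, both called in 20 of 20 alternatives. Macrophages also express Ctsb. Phex, the endopeptidase that protects mineral from the ASARM peptide of Mepe, was higher by 0.63 at day 7 and 1.31 at day 14, and only the latter call held in 20 of 20 alternatives; at day 7 it held in 6. Fam20c, the kinase of secreted proteins that phosphorylates the SIBLING family, was chosen after its values were seen: it stood at 5.02 and 5.13 RPKM in day 7 control, 3.72 and 3.91 in day 7 LAMZ, 7.23 and 6.02 in day 14 control, and 14.5 and 19.8 in day 14 LAMZ. The abundant Thbs1 and Pcolce were lower at day 14 (−0.44 and −0.60) and Mmp2 was not called; the Thbs1 call held in 8 of 20 alternatives, with adjusted p up to 0.41, and the Pcolce call was lost without day 14 LAMZ replicate 1 (0.0541).

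Of 12 transcription factors of bone matrix genes, 7 were higher and 1 lower at day 7 and 6 were higher and 3 lower at day 14, with medians of 0.91 and 0.65 that stayed above 0 after rescaling to a common sum (0.66 and 0.33), median centring and quantile normalization; the day 14 count after rescaling was 3 higher and 3 lower. Sp7 (osterix) was higher by 1.46 and 1.01 and Mef2c by 1.49 and 0.78; without day 14 LAMZ replicate 2 the day 14 adjusted p was 0.0558 for Sp7 and 0.0575 for Mef2c, and for Mef2c it was 0.0578 without day 14 control replicate 1. Twist1, a repressor of Runx2 function, was lower by 1.02 and 1.06, with an adjusted p of 0.0503 at day 7 without day 7 LAMZ replicate 2. Atf4, needed for late osteoblast function, differed by 0.19 at day 7 without a call and was higher by 1.23 at day 14. Runx2 was chosen after its values were seen: it was higher by 0.96 at day 7 in 20 of 20 alternatives and differed by 0.20 at day 14 in none of them past the threshold.

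Phosphate and pyrophosphate handling sets the supply for the mineral that SIBLING proteins seed or restrain. Here 3 of 7 tested genes were higher and 0 lower on each day (median 0.08 and 0.81); after rescaling to a common sum the day 7 median was −0.10, and 2 were higher and 1 lower at day 14. Alpl was higher by 1.97 and 2.16 and the phosphatase gene Phospho1 by 1.32 and 0.88, in 20 of 20 alternatives each. Alpl stood near Dmp1, Spp1 and Ibsp in pattern over the same libraries, so its LAMZ difference is no result separate from that nearness. Smpd3, a sphingomyelinase of matrix vesicles, was higher by 1.59 at day 7, a call lost without day 7 LAMZ replicate 1 (0.0575), and differed by 0.81 at day 14 without a call (limma adjusted p = 0.051). Of 10 other bone matrix genes, 0 were higher and 1 lower at day 7 and 1 was higher and 3 lower at day 14 (median 0.18 and 0.20, with the sign turned after rescaling to a common sum and after quantile normalization). Ecm1 was lower by 0.79 and 1.10, the former not called without day 7 control replicate 1 (0.0821) or day 7 LAMZ replicate 1 (0.112), and Mgp, an inhibitor of calcification, was lower by 0.89 at day 14. The abundant Col1a1 was higher by 0.55 at day 14 in 7 of 20 alternatives, with adjusted p up to 0.649, and Col1a2 and Sparc were not called.

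**Figure D5:**
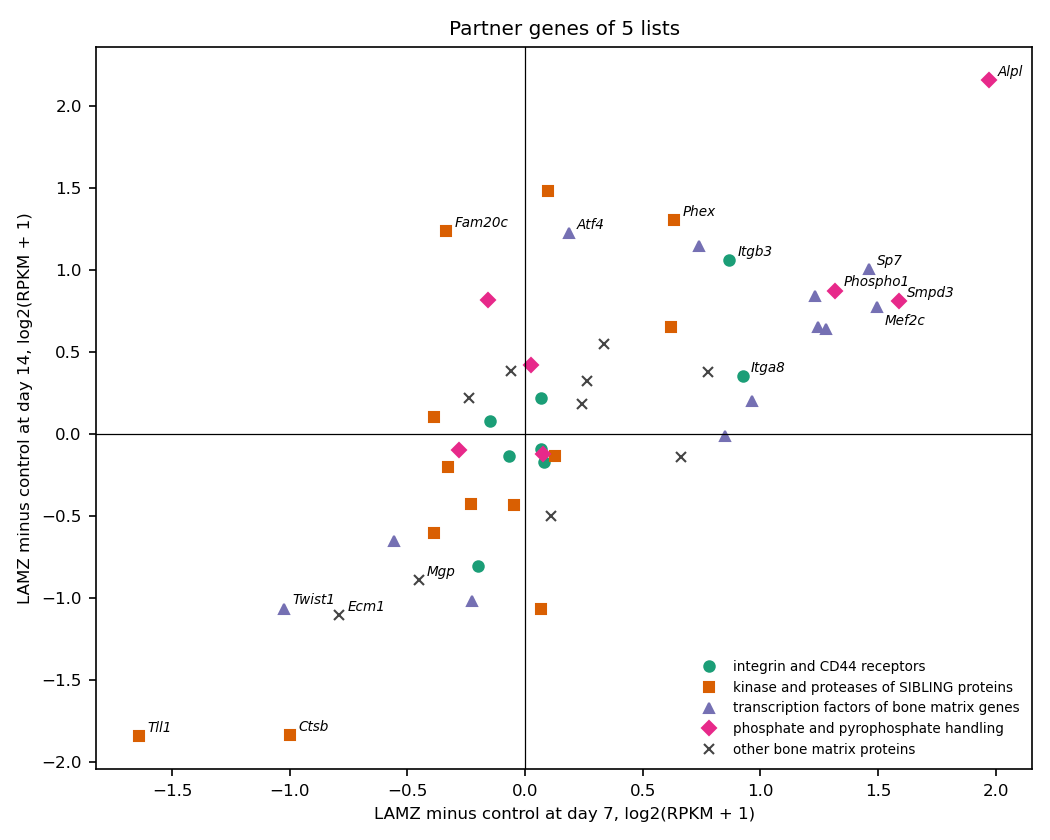
LAMZ minus control in log2(RPKM + 1) at day 7 (horizontal axis) and day 14 (vertical axis) for the 50 tested genes of 5 lists, marked by list; the kinase and protease list also holds Fam20a, Pcolce and Thbs1. Both comparisons are of separate libraries; Alpl lies at the upper right at 1.97 and 2.16, and Tll1 and Ctsb at the lower left.

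Among relatives by descent, the SPARC family had 2 of 6 tested genes higher and 1 lower at day 7, and 2 higher and 2 lower at day 14 (median 0.25 and 0.36), and after rescaling to a common sum both medians were near 0 (0.01 and 0.00). Fstl1 was lower by 0.82 and 1.74 and Spock2 higher by 1.33 and 0.77, while Smoc2 was higher by 1.19 at day 7 and Sparc itself, at 2198 to 3687 RPKM, was not called. The day 7 call of Fstl1 was lost without day 7 LAMZ replicate 1 (0.0913) and the day 14 call of Spock2 without day 14 LAMZ replicate 2 (0.0525). The family had no common direction, and Fstl1 was lower on both days, as Sparcl1 was. Of 8 casein, enamel and other secretory calcium-binding phosphoprotein genes, Scpppq1 had no value and the other 7, which like Dspp belong to other tissues, were between 0 and 0.194 RPKM in every library and were not tested.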

How the data were processed

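Ion Proton reads were mapped by the authors to mm10 and summed by gene in CLC Genomics Workbench, and the deposited unit is RPKM. Each of the 8 libraries was its own table, with 0 columns of other samples. Of 51826 entries, 4 with repeated date-like symbols were dropped, which left 51822. Mapped reads per library (3463539 to 5832097) were worked out from the spacing of the RPKM values and the exon lengths in GENCODE M21; with them, 96.3% to 97.6% of the 843 to 1475 values of up to 10 reads checked per library lay within 0.02 of a whole read.

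Values were analysed as log2(RPKM + 1) with limma 3.58.1 (R 4.3.3), with trended variance, 4 group means and Benjamini-Hochberg adjustment, at an adjusted p under 0.05. The 12514 genes with at least 1 RPKM in at least 2 libraries were tested. Groups came from the sample labels; the column header of the day 7 LAMZ replicate 1 table has another form than those of the other 7 and does not name LAMZ, and that library was used as its label says. Means, SD, ratios and non-overlap were computed in Python 3.11.15 from RPKM; the interval of a read ratio is the exact conditional 95% interval.

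The members and lists were chosen with earlier results of these data known. The lists were integrin and CD44 receptors, kinase and proteases with associated proteins, transcription factors, phosphate handling, other bone matrix proteins, the SPARC family, other secretory calcium-binding phosphoproteins, and markers of osteoblasts, osteocytes, macrophages, osteoclasts, chondrocytes, endothelium and pericytes. In each list the 3 genes of highest level and the 2 with the largest LAMZ difference among those called were named, as were the 5 tested genes nearest each member in pattern and genes within 500 kb; other names are marked in the text or given for context after their values were seen. Promoter windows and gene starts were those of RefSeq GRCm38.p6.

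Alternatives were pseudocounts of 0.1 and 5, no filter, a filter at 5 RPKM, rescaling to a common sum, median centring, quantile normalization, replicate blocks, fits to the compared groups alone, no variance trend, and leaving out each library. The code was tested on simulated data, where most unchanged genes that were called were under 1 kb, so a fit to genes of at least 1 kb of exon was added after seeing the data. All members are longer than that.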

Additional observations from a re-analysis of the deposited data

Results flagged for a closer look

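Among the named genes, 6 were flagged because the interaction test called a change of their LAMZ difference between day 7 and day 14 (limma adjusted p under 0.05). None is a member of the SIBLING cluster. Fam20c, the kinase of these proteins, had a LAMZ difference of −0.34 at day 7 and 1.24 at day 14 in log2(RPKM + 1), a change of 1.57 (limma adjusted p = 0.0369, called in 7 of 19 alternatives). Atf4 went from 0.19 to 1.23, a change of 1.04 (limma adjusted p = 0.0369, called in 7 of 19). Slpi, near Mepe in pattern, went from 0.84 to 2.30, a change of 1.46 (limma adjusted p = 0.0369, called in 7 of 19), and Asns from 0.57 to 1.88, a change of 1.31 (limma adjusted p = 0.0369, called in 6 of 19). Slpi and Asns were named because their pattern over the same 8 libraries was near that of Mepe, so nothing is read from their calls. The macrophage complement genes C1qb and C1qc changed by −1.44 (limma adjusted p = 0.0287, called in 7 of 19) and −1.20 (limma adjusted p = 0.0487, called in 4 of 19). C1qb and C1qc were at 0 in all 4 LAMZ libraries, so their LAMZ difference is set by the control level and the pseudocount. They passed the filter only with the control libraries, where they were high, so nothing is read from their calls. All 6 rest on 2 libraries a group, and each call was lost without any 1 of the 8 libraries; the cause was not tested.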

How the results depend on the processing

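No called difference of a member changed sign. Among those not called, the sign turned at 5 points. Leaving out 1 library gave −0.0420 to 0.303 for Ibsp between the days in control culture (lowest without day 7 control replicate 1), −0.106 to 0.399 for Sparcl1 there (lowest without day 7 control replicate 2), and for the change of the LAMZ difference −0.875 to 0.393 in Spp1 (highest without day 7 control replicate 1) and −0.188 to 0.317 in Sparcl1 (lowest without day 7 control replicate 1), which was −0.0609 after rescaling. The cause was not tested. The partner genes' medians turned after rescaling, from 0.08 and 0.19 to −0.18 and −0.16. The LAMZ difference of Dmp1, Spp1 and Ibsp kept its sign in 20 of 20 alternatives and that of Mepe and Sparcl1 in 19 of 19, from 0.21 to 2.57 for Mepe at day 7 and 1.10 to 3.53 at day 14, with pseudocounts of 5 and 0.1 at the ends. Of the counts, 174 stayed within 1.5 times the main count or kept their value and 60 moved; of the other values 427 were the same, 32 moved, 9 were stronger and 7 weaker.

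The genes called with LAMZ at day 7 (1607) were 951 with no filter, 3592 after rescaling to a common sum and 624 with the compared groups alone. The 2878 at day 14 were 5796 after rescaling. The day difference in control culture (608) was called in 203 genes with no filter, 1135 after rescaling and 0 with the control groups alone; in LAMZ culture (1797) in 1091 with no filter. The change of the LAMZ difference (78) was called in 34 with a pseudocount of 0.1, 166 with 5, 0 with no filter, 133 with a filter at 5 RPKM, 30 with no trend and 228 among genes of at least 1 kb. Members called in control culture (1) were 2 after rescaling, 0 with the groups alone and 2 among genes of at least 1 kb; for the change of the LAMZ difference (0) they were 1 with a pseudocount of 5, 1 with a filter at 5 RPKM and 1 among genes of at least 1 kb. Partner genes higher at day 7 (14) were 9 with the groups alone, and lower (4) 12 after rescaling and 8 after quantile normalization; at day 14 those higher (15) were 9 and those lower (12) were 19 after rescaling. The cause was not tested.

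Leaving out 1 library gave 527 to 1383 genes with LAMZ at day 7, 1512 to 3087 at day 14, 69 to 453 between the days in control culture, 488 to 1890 in LAMZ culture and 0 to 21 for the change. Members called were 0 to 2, 2 to 4 and 0 to 0 in the last 3. Partner genes were 9 to 16 higher and 3 to 5 lower at day 7, and 8 to 17 and 8 to 13 at day 14. A group left with 1 library is assumed to vary like the others.

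A replicate block across all groups gave 1376, 2700, 432, 1548 and 17 called genes in the same order, and a replicate block within each day gave 984 at day 7, 2171 at day 14 and 7 for the change; it could not be applied to the day contrasts. Differences between replicates 1 and 2 correlated between groups by −0.0166, 0.062, 0.0776, 0.0625, −0.0342 and 0.0158, so the numbers show no pairing.

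Scaling moved the direction of the calls. With LAMZ, 33.9% of called genes were higher at day 7 and 30.3% at day 14, against 8.69% and 8.16% after rescaling, 53.5% and 56.3% after median centring, and 45.7% and 47.9% after quantile normalization. The share higher at day 14 was 50.7% in control culture and 85.6% after rescaling; in LAMZ culture it was 35.5%, and 63.5%, 50.5% and 48.6% in the same order. For the change it was 50% and 62.7% after centring. The median difference over all genes moved by rescaling from −0.08 to −0.31 at day 7, −0.15 to −0.43 at day 14, −0.05 to 0.16 in control and −0.11 to 0.03 in LAMZ culture; by centring to 0.03, 0.04 and −0.01 (day 7, day 14, LAMZ culture); and by quantile normalization to 0.03 at day 14. The cause was not tested.

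With 2 libraries a group, the tests rest on variance shared between genes, and 3463539 to 5832097 mapped reads leave Mepe, Dspp and Sparcl1 on few reads.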
